A study of Homo sapiens with 7 samples.

Results

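The pair of Lat-M2 libraries was compared, gene by gene and family by family, with the 3 PA libraries of 769-P, a human cell line established from a clear cell renal cell carcinoma. The members are 5 of the 7 RNA sequencing libraries of the series, chosen by their titles. They are PA1, PA2 and PA3 (n = 3) and Lat-M2-1 and Lat-M2-2 (n = 2). The series title gives Lat-M as latent metastatic cells, PA is not spelled out in the labels, and the number after M is not explained. The other libraries, Lat-M1-1 and Lat-M1-2 (n = 2), share the estimate of spread and serve below as a point of comparison. All groups had the same culture: RPMI medium with 10% fetal bovine serum, antibiotics and glutamine at 37 degrees and 5% CO2, with no treatment named. Each group comes from a single cell line, and no label says whether the libraries of a group are separate cultures, so p-values reflect the scatter among these libraries alone, and that scatter may be technical. Libraries were made with either of 2 kits and no label says which kit served which library, so the kit cannot be told apart from the groups.

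Latent metastasis describes tumour cells that persist at a distant site without forming a growing lesion. Clear cell renal carcinoma is held to arise from the proximal tubule, the kidney segment that takes back water, glucose, amino acids and peptides through an apical brush border. It keeps renal transcription factors such as PAX8, and its best-known lesion is the loss of VHL, which leaves hypoxia-inducible factors active. In epithelial cells generally, desmosomes and keratins carry mechanical strength, integrins and matrix proteins carry attachment, and chemokines and cell-surface ligands carry contact with immune cells.

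Values are TPM, a level scaled to gene length and to the sum of the library. Differences are on the log2(TPM + 1) scale, which understates the change of genes near 0, and are given with their standard error. A gene is said to rise or fall where limma, fitted to the 16724 genes whose mean over all 7 libraries reached 1 TPM, gave a Benjamini-Hochberg adjusted p under 0.05. Of these genes 2119 rose in Lat-M2 against PA, 12.7% of those tested, and 375 fell, 2.24%. The split depended on scaling. The median of all tested genes was 0.14 above 0 on the log2 scale, and after median-ratio scaling, which centres that median, 1249 rose (7.47%) and 1407 fell (8.41%). In both versions 1246 genes rose and 375 fell, and no gene changed sides. Counts of family members are therefore given as deposited and after scaling, to be read against these percentages. Small structural RNAs (RN7SL1, RN7SL2, RN7SK and RMRP) held 29.5% to 31.8% of TPM in the PA libraries, 22.9% in Lat-M2-1 and 27.7% in Lat-M2-2. With these 4 removed and the other genes rescaled, 1520 genes rose and 881 fell. The cause of the shift was not tested. Calls leaned on Lat-M2-1: 506 genes passed without it, against 3191 without Lat-M2-2 and 1138 to 1276 without any 1 PA library. Libraries were also left out in turn (14 fits, 7 as deposited and 7 scaled), and calls that were lost are described with the gene or family. With 1 Lat-M2 library left, that library was assumed to vary like the other groups.

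**Figure D1:**
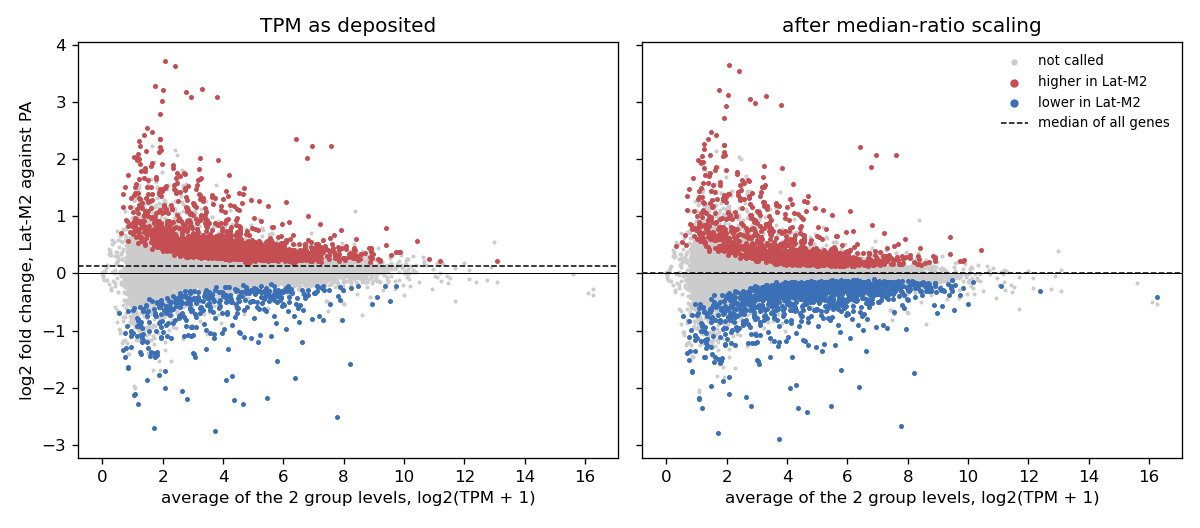
Log2 fold change of Lat-M2 against PA (vertical) over the average level of the 2 groups in log2(TPM + 1) (horizontal), 1 point per tested gene, for TPM as deposited (left) and after median-ratio scaling (right). Red and blue points passed the test; the dashed line is the median of all genes, 0.14 above 0 on the left, where 2119 genes are red and 375 blue.

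Several of the largest rises were in genes that the PA libraries hardly used. PTRF, which encodes the caveolar coat protein cavin 1, was listed at 0.0268, 0.182 and 0.279 TPM in PA and at 15.5 and 12.9 TPM in Lat-M2, a log2 difference of 3.71 ± 0.12 (adjusted p = 1.02e-05). POF1B, an actin-binding protein of epithelial junctions, went from 0.459, 0.497 and 0.552 TPM to 18.4 and 16.8 TPM (3.63 ± 0.10, adjusted p = 9.28e-06). In both genes the lowest Lat-M2 library lay far above the highest PA library, though the rule for naming the largest changes required some separation. SPARC, a secreted protein that binds collagen, stood at 0.0368 to 0.126 TPM in PA and at 10.1 and 8.97 TPM in Lat-M2 (3.28 ± 0.12). TNFAIP6, which is secreted and binds hyaluronan, rose from 2.02, 2.32 and 2.25 TPM to 31.3 and 26.7 TPM (3.23 ± 0.09). All 4 were also above PA in the Lat-M1 libraries, where PTRF stood at 63.9 and 65.2 TPM, POF1B at 6.43 and 6.15 TPM, SPARC at 8.44 and 9.93 TPM and TNFAIP6 at 41.8 and 44.2 TPM.

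A pair of genes among the largest rises handles lipids. NPC1L1, the transporter through which cells take up sterols at the apical surface, rose from 0.333, 0.414 and 0.288 TPM to a mean of 11.4 ± 0.858 TPM (3.20 ± 0.12, adjusted p = 1.66e-05). It was much lower in Lat-M1, at 2.72 and 2.67 TPM, and the difference of Lat-M2 from Lat-M1 passed the test (1.74 ± 0.13). SGPP2, a phosphatase that removes sphingosine 1-phosphate, went from 1.08 to 1.44 TPM in PA to 21.7 and 17.6 TPM in Lat-M2 (3.17 ± 0.11). The remaining named rises were VCAM1 and DSC2, described below, CD74 (0.153 ± 0.03 TPM, mean and SD, in PA and 5.71 ± 0.2 TPM in Lat-M2), the renal developmental factor POU3F3 (0.681 ± 0.08 against 7.57 ± 0.85 TPM), PRAP1 (0.124 ± 0.13 against 5.00 ± 0.17 TPM), AL627171.1 and MIR4698. PRAP1 was near 0 in Lat-M1 too, at 0.192 and 0 TPM. AL627171.1 and MIR4698 were listed at 0 in PA1 and PA2 and at 1.48 and 1.11 TPM in PA3; both calls were lost without Lat-M2-1 (adjusted p = 0.0789 and 0.0644) and, after scaling, without either Lat-M2 library. The others kept their calls in all 14 fits.

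EDIL3, COLEC12 and MMP1 had the largest falls. EDIL3, a secreted ligand of integrins, dropped from 34.2, 33.1 and 34.6 TPM in PA to 4.38 and 3.93 TPM in Lat-M2 (-2.76 ± 0.08, adjusted p = 9.64e-06). MMP1, the interstitial collagenase, was among the abundant mRNAs of PA at 533, 501 and 529 TPM and stood at 95.4 and 86.0 TPM in Lat-M2 (-2.51 ± 0.07). RELN, the large secreted glycoprotein reelin, fell from 151, 153 and 162 TPM to 44.5 and 41.3 TPM (-1.83 ± 0.06). All 3 were lower still in the Lat-M1 libraries, RELN at 1.34 and 1.35 TPM and MMP1 at 15.5 and 17.4 TPM. PTGES, which makes prostaglandin E2, fell from 40.9, 42.1 and 46.2 TPM to 8.36 and 8.64 TPM (-2.21 ± 0.07). GABRB1, a subunit of GABA-A receptors, fell from 13.9 ± 0.55 TPM (SD, n = 3) to 2.25 ± 0.02 TPM (SD, n = 2), and LTB, a lymphotoxin subunit, from 11.6 ± 1.4 to 2.06 ± 0.65 TPM. No PA library overlapped the Lat-M2 libraries in any of these genes, which the rule for naming the largest changes required.

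In 3 of the largest falls the Lat-M1 libraries lay on the other side of PA as deposited, for COLEC12 by a margin that scaling removes. COLEC12, a scavenger receptor, stood at 7.86, 6.64 and 7.86 TPM in PA, 7.98 and 8.82 TPM in Lat-M1 and 0.250 and 0.345 TPM in Lat-M2. FN1, the matrix protein fibronectin, stood at 89.1, 90.3 and 95.5 TPM in PA, 317 and 350 TPM in Lat-M1 and 20.6 and 18.6 TPM in Lat-M2. INHBA, which encodes the subunit of activin A, stood at 32.5, 29.9 and 32.0 TPM in PA, 96.1 and 102 TPM in Lat-M1 and 8.56 and 7.29 TPM in Lat-M2. Against PA the log2 differences of Lat-M2 were -2.70 ± 0.11 for COLEC12, -2.17 ± 0.07 for FN1 and -1.87 ± 0.08 for INHBA. Against Lat-M1 they were -2.86 ± 0.12, -4.02 ± 0.08 and -3.49 ± 0.09, with adjusted p = 6.03e-06, 1.82e-07 and 5e-07. The remaining named falls were the RNAs AL590369.1 (55.3 ± 2.5 against 10.6 ± 1 TPM), RP11-731J8.2 and AC017084.1, PRR16, and MIR205HG (36.1 ± 1.7 against 9.62 ± 0.14 TPM), the host transcript of a microRNA whose own level it does not give. AC017084.1 ranged from 3.66 to 11.2 TPM within PA, and its call was lost in 10 of the 14 fits. The other falls kept theirs in all 14.

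**Figure D2:**
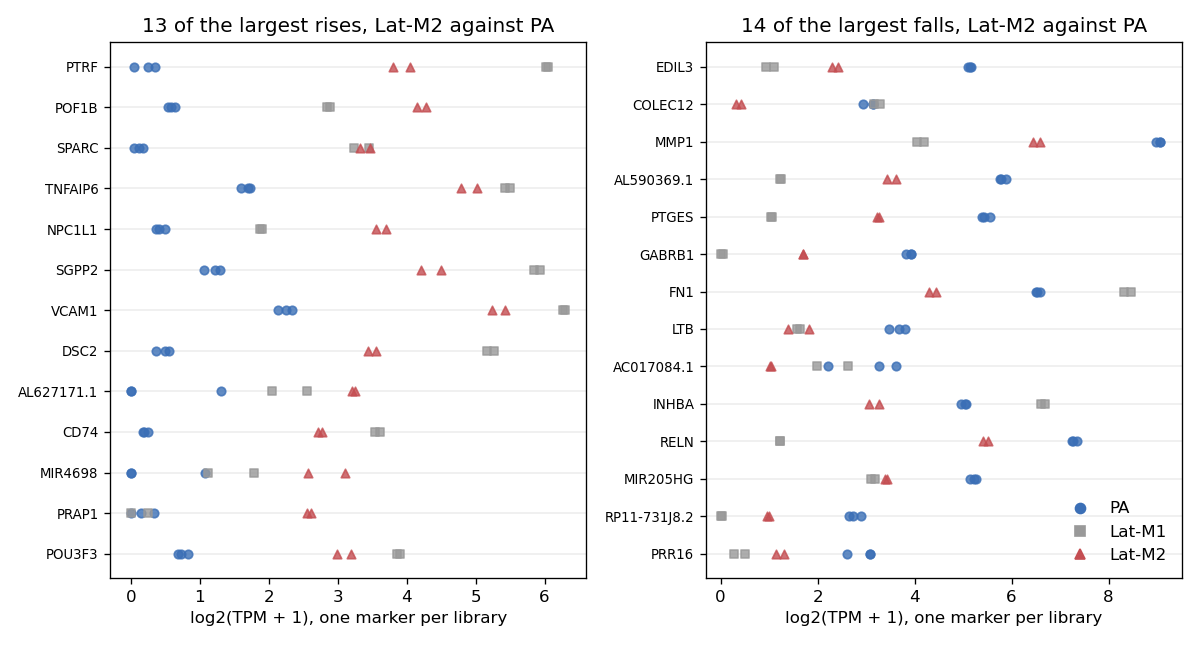
Level in log2(TPM + 1) (horizontal) of 13 of the genes with the largest rises (left) and of the 14 with the largest falls (right) in Lat-M2 against PA, 1 marker per library (PA circles, Lat-M1 squares, Lat-M2 triangles). The Lat-M2 markers do not overlap the PA markers in any gene, because the rule for naming these genes required it. FN1 and INHBA have Lat-M1 above PA and Lat-M2 below it.

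Desmosome and keratin genes rose in more than their background share. Of 7 desmosome genes tested, 4 rose and none fell, with the same counts after scaling. DSC2, a desmosomal cadherin, went from 0.412, 0.465 and 0.289 TPM in PA to 10.7 and 9.84 TPM in Lat-M2 (3.02 ± 0.10, adjusted p = 9.64e-06). JUP, which encodes plakoglobin, stood at 14.7 ± 2.12 TPM against 35.5 and 29.6 TPM (1.10 ± 0.13). PKP3, a plakophilin, stood at 7.52 ± 1.2 TPM in PA and 14.7 ± 0.13 TPM in Lat-M2, and the cadherin DSG2 at 147 ± 6.2 against 199 ± 16 TPM. The DSC2 call held in all 14 fits. Without Lat-M2-1 the count was 1 as deposited and 2 after scaling, since as deposited JUP, DSG2 and PKP3 missed the threshold (adjusted p = 0.051, 0.0531 and 0.0561). After scaling DSG2 was also lost without Lat-M2-1 and PKP3 without either Lat-M2 library. Of 7 keratin and vimentin genes, 4 rose as deposited and after scaling, all of them keratins, the filament proteins of epithelia. KRT80 stood at 102, 114 and 112 TPM in PA and 211 and 188 TPM in Lat-M2 (0.86 ± 0.08, adjusted p = 0.00113). KRT18 went from 278, 285 and 270 TPM to 441 and 402 TPM and KRT7 from 15.0, 17.4 and 17.8 TPM to 31.0 and 29.2 TPM. KRT8, the partner of KRT18 in filaments, went from 112, 142 and 130 TPM to 206 and 181 TPM, a call kept in 8 of the 14 fits. It was lost as deposited without Lat-M2-1 (adjusted p = 0.117) and after scaling without PA3 or any Lat-M library. VIM, vimentin, stood at 2193, 2225 and 2224 TPM in PA and 2246 and 1981 TPM in Lat-M2 (-0.07 ± 0.07, adjusted p = 0.5); after scaling it fell (-0.22, adjusted p = 0.0144), except without Lat-M2-2. Of 4 cadherins tested, CDH4 rose and CDH6 fell, as deposited and after scaling. CDH1, the epithelial cadherin, was under the mean of 1 TPM and was not tested, and CDH2 did not pass (0.17 ± 0.06, adjusted p = 0.0928).

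Tight junction genes split. CLDN16, a claudin of renal epithelia, rose from 166, 155 and 165 TPM to 267 and 249 TPM (0.67 ± 0.06, adjusted p = 0.001), with 96.2 and 99.7 TPM in Lat-M1. CLDN2, the pore-forming claudin of the proximal tubule, fell from 250, 255 and 258 TPM to 199 and 187 TPM (-0.40 ± 0.06, adjusted p = 0.0105), with 31.2 and 34.4 TPM in Lat-M1. Of 10 tested members, 2 rose and 1 fell, and 1 rose and 1 fell after scaling. The second rise, F11R, was kept only in the fit as deposited without Lat-M2-2, where 3 members rose. Among the transcription factors of epithelial and mesenchymal states 2 of 8 rose, SNAI2 and ELF3, as deposited and after scaling, but 1 without Lat-M2-1 and 1 in each of the 7 scaled fits.

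Contractile genes rose in more than the background share. Of 13 tested members, 7 rose and 1 fell, and 6 rose and 2 fell after scaling. MYL9, a myosin light chain, stood at 9.43, 10.2 and 11.3 TPM in PA and 29.7 and 26.2 TPM in Lat-M2 (1.36 ± 0.09, adjusted p = 0.000311). TAGLN, an actin-binding protein, stood at 6.98, 5.86 and 7.44 TPM against 19.2 and 18.8 TPM (1.37 ± 0.09). The tropomyosin TPM2 rose from 43.1 ± 2.3 to 104 ± 11 TPM and the regulator CALD1 from 6.02 ± 0.39 to 14.6 ± 1.7 TPM. These 4 genes kept their calls in all 14 fits, and the number of members that rose was 6 to 9 as each library was left out in turn. The Lat-M2 levels stayed far from those of Lat-M1, where TAGLN stood at 402 and 440 TPM and MYL9 at 285 and 310 TPM. MYLK, the kinase of myosin light chains, was the member that fell, and it lost its call without PA2 or PA3. Of 8 caveolae genes, 2 rose and 1 fell, against 2 and 4 after scaling. Beside PTRF, EHD2 rose (4.14, 5.10 and 4.65 TPM against 9.69 and 8.74 TPM), a call lost without Lat-M2-1 (adjusted p = 0.0761) and in the scaled fits without either Lat-M2 library. SDPR, which encodes the related coat protein cavin 2, went the other way, from 91.2, 93.4 and 96.2 TPM to 31.3 and 32.0 TPM (-1.53 ± 0.05, adjusted p = 1.07e-05). CAV1, the main structural protein of caveolae, was at 609 ± 11 TPM in PA and 555 ± 34 TPM in Lat-M2, not past the threshold as deposited (adjusted p = 0.152) and lower after scaling (adjusted p = 0.00447).

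**Figure D3:**
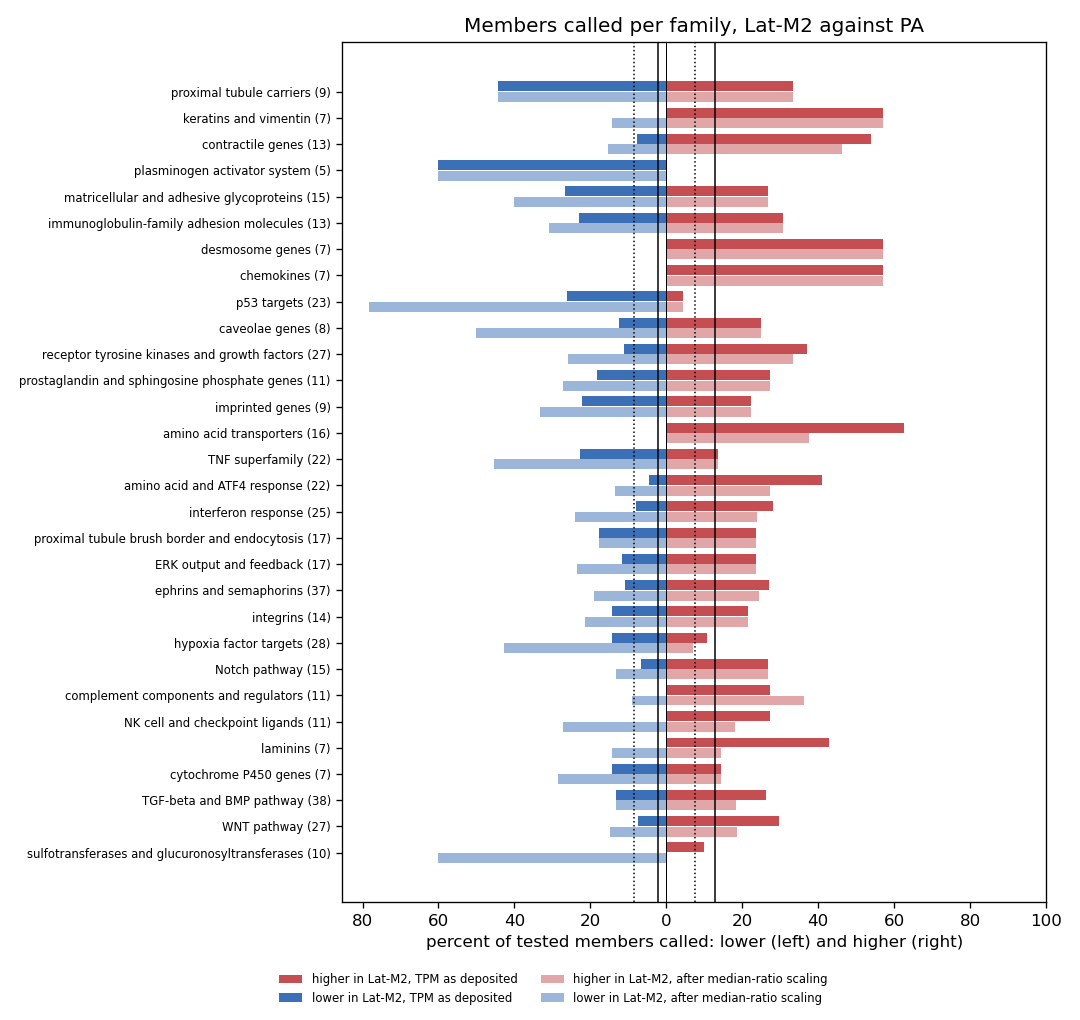
Share of tested members of a family that passed the test (horizontal, percent; number tested in brackets), lower in Lat-M2 to the left and higher to the right, for TPM as deposited (dark bars) and after scaling (light bars), for the 30 families with the most calls per member. Solid and dotted lines are the shares over all tested genes, 12.7% and 2.24% as deposited and 7.47% and 8.41% after scaling.

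The system that activates plasminogen, a protease cascade at the cell surface, fell. Of its 5 tested members 3 fell and none rose, with the same counts after scaling and with every library left out in turn. PLAU, the urokinase activator, stood at 329, 323 and 327 TPM in PA and 197 and 174 TPM in Lat-M2 (-0.82 ± 0.07, adjusted p = 0.000643). SERPINE2, an inhibitor of such proteases, stood at 147, 145 and 147 TPM against 120 and 109 TPM (-0.35 ± 0.06, adjusted p = 0.0125). So an activator and an inhibitor fell together. In Lat-M1, PLAU lay above PA as deposited, at 336 and 357 TPM, but below PA after scaling. SERPINE2 stood there at a mean of 10.9 ± 0.129 TPM.

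Among 16 metalloproteinases and their TIMP inhibitors, 4 rose and 1 fell, and 3 rose and 3 fell after scaling. The inhibitor TIMP3 had the largest rise, from 1.14, 1.02 and 0.888 TPM to 7.25 and 5.92 TPM (1.91 ± 0.11, adjusted p = 0.000151), and it kept its call in all 14 fits. Without PA1 or without Lat-M2-1 it was the only member that rose, and without PA2 there were 2. Of 15 matricellular and adhesive glycoproteins 4 rose (SPARC, TNFAIP6, FSTL1 and TGFBI) and 4 fell (FN1, EDIL3, RELN and FBLN1), and 4 rose and 6 fell after scaling. Of 12 collagens 2 rose and 1 fell, and 1 rose and 1 fell after scaling; COL4A5, the second rise, kept its call only in the fits without PA3. COL1A1 stood at 1.04, 1.37 and 1.16 TPM in PA, 3.72 and 2.91 TPM in Lat-M2 and 19.2 and 20.6 TPM in Lat-M1. COL6A3 stood at 1.43 ± 0.09 against 0.176 ± 0.02 TPM, a call lost without Lat-M2-1. It too was tested only because of its level in Lat-M1. Of 7 laminins 3 rose and none fell as deposited, and 1 rose and 1 fell after scaling, a fall lost with any library left out; 1 rose as deposited without PA3, without Lat-M2-1 or without either Lat-M1 library.

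Integrins, the receptors for these matrix proteins, did not move as a family: of 14 tested, 3 rose and 2 fell, and 3 rose and 3 fell after scaling. ITGB4, the partner of laminin receptors in hemidesmosomes, rose from 0.654, 1.08 and 1.12 TPM to 5.36 and 4.83 TPM (1.65 ± 0.17, adjusted p = 0.00182). ITGB3 fell from 10.4, 9.58 and 9.57 TPM to 4.53 and 4.74 TPM (-0.95 ± 0.06, adjusted p = 0.0003), while Lat-M1 held it at 265 and 274 TPM. ITGB8 fell from 19.4 ± 0.36 to 13.5 ± 1.1 TPM. Without PA2 or without Lat-M2-1 only ITGB4 rose, as it did after scaling without PA2 or any Lat-M library. The calcium-binding S100A4, a protein linked to cell motility, rose from 86.9, 93.6 and 84.9 TPM to 431 and 402 TPM (2.22 ± 0.07, adjusted p = 9.64e-06), above Lat-M1 at 193 and 207 TPM. Its relative S100A2 fell from 892, 868 and 850 TPM to 583 and 658 TPM (-0.49 ± 0.06). Of 10 tested S100 genes 2 rose and 1 fell, and 1 rose and 3 fell after scaling; the second rise, S100A14, was lost with any PA or Lat-M2 library left out and kept in 2 of the 14 fits.

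Chemokines and the adhesion molecule VCAM1 rose. Of 7 chemokines tested, 4 rose and none fell, as deposited and after scaling, and the counts were 3 to 5 over the 14 fits. VCAM1, the endothelial-type ligand of leukocyte integrins, stood at 3.75, 4.07 and 3.39 TPM in PA and 41.8 and 36.6 TPM in Lat-M2 (3.08 ± 0.09, adjusted p = 9.28e-06), with 76.0 and 77.2 TPM in Lat-M1. IL8, which attracts neutrophils, stood at 22.3, 21.2 and 23.1 TPM against 45.3 and 42.9 TPM (0.96 ± 0.07, adjusted p = 0.000318). CCL2, which attracts monocytes, stood at 2.53, 3.14 and 3.28 TPM against 9.96 and 10.3 TPM (1.49 ± 0.11). CXCL16, a membrane-bound chemokine, rose from 0.110, 0.218 and 0.286 TPM to 4.44 and 2.80 TPM. CXCL2, another ligand of the IL8 receptors, rose from 4.04, 5.74 and 4.03 TPM to 10.3 ± 1.04 TPM, a call lost without Lat-M2-1 (adjusted p = 0.0666) and, after scaling, without Lat-M2-1 or Lat-M2-2 (adjusted p = 0.0785 and 0.0606). CXCL3 did not pass (2.49 ± 0.665 against 3.83 ± 0.61 TPM, adjusted p = 0.104), nor did CX3CL1 (adjusted p = 0.578). CXCL1 was listed at 0 in both Lat-M2 libraries and at 0, 0.0671 and 0 TPM in PA. In Lat-M1 it stood at 4.87 and 5.29 TPM. It was tested only because of its level in Lat-M1 and could show no fall here. CXCL1, CXCL2 and CXCL3 may share reads, so the division of levels among them is uncertain.

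The promoters below are shown because the textbook regulator of these genes, NF-kB, binds letters that can be searched. The 250 bases before the RefSeq start (assembly GRCh38.p14, another build than the hg19 named for the files) were read for the motif GGNATTTCC on both strands. It occurred in 433 of 35116 promoters, 1.23%. Of the 7 chemokines tested, 4 had a promoter in the table (CXCL1, CXCL2, CXCL3 and IL8) and all 4 held a match; CCL2, CXCL16 and CX3CL1 had no entry. Of 11 tested immunoglobulin-type adhesion genes with an entry, VCAM1 and ICAM1 held a match. The letters next to the match were the same in CXCL1, CXCL2 and CXCL3, so their matches are not independent. The motif was picked as that of a known regulator of these genes, so the share of matches is no test. Capitals mark the match.
VCAM1 (chr1:100719492-100719741, plus strand): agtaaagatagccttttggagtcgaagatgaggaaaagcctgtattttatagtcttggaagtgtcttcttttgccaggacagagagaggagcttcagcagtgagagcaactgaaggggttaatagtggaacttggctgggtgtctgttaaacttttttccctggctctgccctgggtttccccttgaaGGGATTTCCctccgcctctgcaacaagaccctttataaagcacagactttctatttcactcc
IL8 (chr4:73740319-73740568, plus strand): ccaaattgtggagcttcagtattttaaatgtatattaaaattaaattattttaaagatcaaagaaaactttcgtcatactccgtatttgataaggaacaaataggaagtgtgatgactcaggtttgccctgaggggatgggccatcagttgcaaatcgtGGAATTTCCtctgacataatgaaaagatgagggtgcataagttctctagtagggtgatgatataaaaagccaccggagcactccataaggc
CXCL2 (chr4:74099196-74099445, minus strand): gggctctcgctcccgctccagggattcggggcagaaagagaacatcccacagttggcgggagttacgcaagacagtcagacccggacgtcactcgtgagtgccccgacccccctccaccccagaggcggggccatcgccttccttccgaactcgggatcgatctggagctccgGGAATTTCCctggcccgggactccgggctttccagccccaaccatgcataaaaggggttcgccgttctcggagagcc
CXCL1 (chr4:73869143-73869392, plus strand): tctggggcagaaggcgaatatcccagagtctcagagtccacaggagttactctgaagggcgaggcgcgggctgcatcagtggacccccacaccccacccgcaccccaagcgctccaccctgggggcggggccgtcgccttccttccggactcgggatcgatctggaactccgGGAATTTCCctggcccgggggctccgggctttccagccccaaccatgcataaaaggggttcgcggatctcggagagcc
The matches began 62 bases before the start in VCAM1, 91 in IL8, 77 in CXCL2 and 78 in CXCL1. Among the genes with a match, VCAM1, IL8 and CXCL2 rose in Lat-M2, CXCL3 did not pass, and ICAM1 stood at 35.5 ± 2.4 TPM in PA and 35.5 ± 3.7 TPM in Lat-M2. The subunits and feedback genes of NF-kB moved little. Of 20 tested, 3 rose and 1 fell, and 1 rose and 1 fell after scaling; as deposited, 1 rose without any library other than Lat-M2-2, 4 rose without Lat-M2-2, and the fall of TRAF1 was lost with each library left out. RELA, a subunit, stood at 14.3 ± 0.98 against 14.9 ± 0.85 TPM and NFKBIA, the inhibitor it induces, at 65.7 ± 1.5 against 67.8 ± 4.7 TPM (adjusted p = 0.67 and 0.667). TNFAIP3, another feedback gene, stood at 8.15 ± 0.55 against 8.13 ± 0.14 TPM, with 26.9 and 29.4 TPM in Lat-M1. The receptor IL1R1 was the rise that held in all 14 fits, from 1.93, 1.70 and 1.90 TPM to 5.05 and 4.90 TPM (1.07 ± 0.11, adjusted p = 0.00181).

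**Figure D4:**
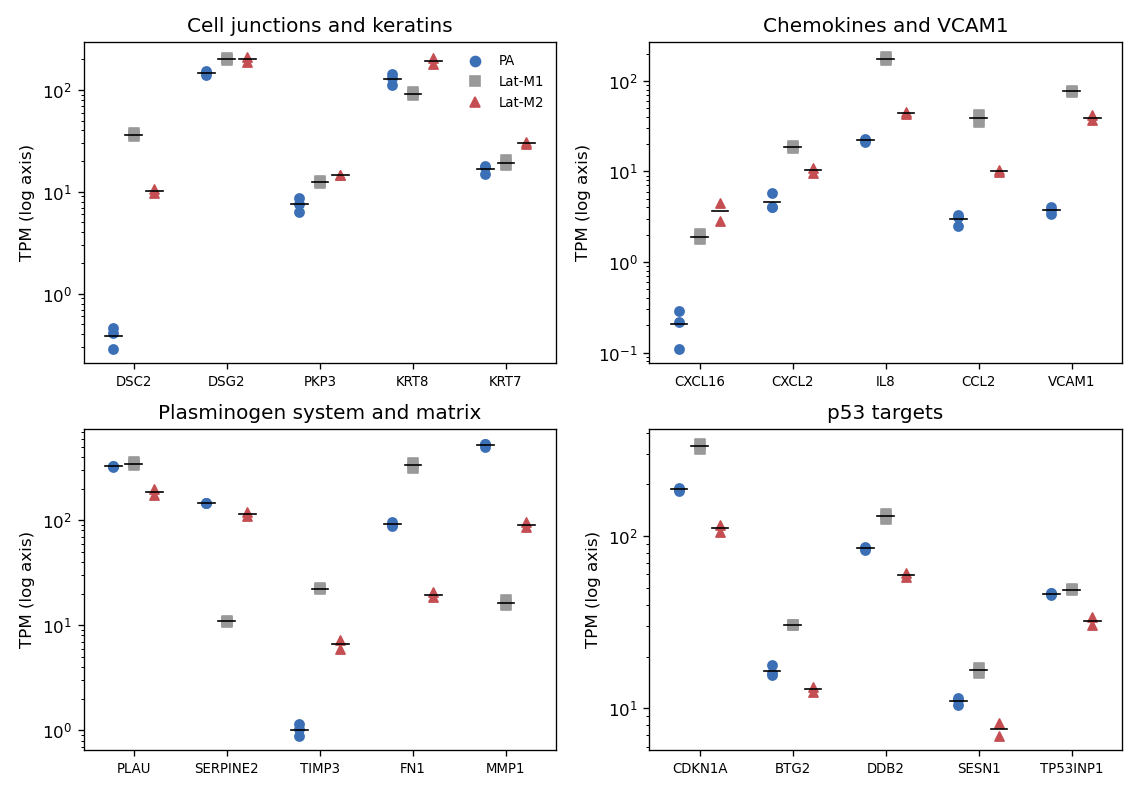
TPM on a log axis (vertical) of genes of 4 families, 1 marker per library with a bar at the group mean (PA circles, Lat-M1 squares, Lat-M2 triangles). IL8 and VCAM1 lie higher in Lat-M2 than in any PA library and higher still in Lat-M1. In these values as deposited, PLAU, FN1 and the p53 targets have Lat-M2 below PA and Lat-M1 above it.

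Other immune genes moved in small groups. In the TNF superfamily 3 of 22 members rose and 5 fell, and 3 rose and 10 fell after scaling; the falls as deposited numbered 3 without PA1 or PA2 and 2 without any other library. TNF rose from 1.72, 2.49 and 2.71 TPM to 7.58 and 8.19 TPM (1.44 ± 0.13, adjusted p = 0.00129). TNFSF12 (2.36 ± 0.24 against 7.87 ± 0.36 TPM) and TNFSF13 (4.69 ± 0.59 against 13.9 ± 0.56 TPM) also rose; the genes adjoin and share a read-through transcript, so their reads may be divided uncertainly. MHC class I genes, which present peptides, rose in 7 of 19 cases as deposited; after scaling 3 rose and 2 fell. As deposited they rose in none without PA1 or Lat-M2-1, in 1 without PA2, PA3 or either Lat-M1 library, and in 5 without Lat-M2-2. HLA-B stood at 77.6, 90.9 and 86.8 TPM against 117 and 104 TPM (adjusted p = 0.0311 as deposited and 0.0653 scaled), and passed in 3 of the 14 fits. HLA genes share sequence, and their division of reads is uncertain. Of the class II genes only CD74, the invariant chain, reached a mean of 1 TPM. Among 25 interferon-response genes 7 rose and 2 fell, and 6 rose and 6 fell after scaling, with 3 rises without Lat-M2-1 and, as deposited, 1 fall without any other library. IFITM2 rose from 0.472, 0.999 and 0.476 TPM to 3.84 and 4.28 TPM (1.63 ± 0.18) and GBP2 from 5.23 ± 0.4 to 9.21 ± 0.74 TPM. Of 11 complement genes 3 rose and none fell as deposited, and 4 rose and 1 fell after scaling; as deposited 5 rose without Lat-M2-2, and the rises of CLU, the chaperone clusterin (11.3 ± 0.55 against 22.6 ± 0.87 TPM), and of CD55, a complement inhibitor (4.09 ± 0.28 against 7.56 ± 0.32 TPM), held in all 14 fits. The cytokine IL11 fell from 2.81, 2.83 and 2.86 TPM to 0.553 and 0.419 TPM (-1.37 ± 0.12, adjusted p = 0.000839), with 5.29 and 5.02 TPM in Lat-M1.

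Prostaglandin and sphingosine genes changed in both directions. Of 11 tested, 3 rose and 2 fell, and 3 rose and 3 fell after scaling. The synthase PTGES and the degrading enzyme HPGD both fell, HPGD from 102, 96.7 and 103 TPM to 72.0 and 67.1 TPM (-0.53 ± 0.06, adjusted p = 0.00323). The prostaglandin carrier SLCO2A1 rose from 0.284 ± 0.03 to 1.41 ± 0.06 TPM, but it was tested only because of its level in Lat-M1. In Lat-M1, HPGD stood at 2.09 and 2.18 TPM and SLCO2A1 at 16.1 and 18.0 TPM.

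Kidney tubule genes moved member by member. AQP1, the water channel of the proximal tubule, rose from 53.8, 61.2 and 54.6 TPM in PA to 265 and 272 TPM in Lat-M2 (2.23 ± 0.07, adjusted p = 9.64e-06). In Lat-M1 it stood at 3.08 and 2.97 TPM, so the Lat-M pairs lay on opposite sides of PA. ANPEP, a brush-border peptidase, rose from 51.0, 53.4 and 55.6 TPM to 224 and 212 TPM (2.01 ± 0.06, adjusted p = 9.64e-06). VIL1, which bundles actin in microvilli, rose from 4.80, 4.59 and 4.03 TPM to 12.3 and 10.9 TPM (1.21 ± 0.09), and CDHR2, a microvillar cadherin, from 3.48 ± 0.26 to 7.49 ± 0.41 TPM, with 0.0528 and 0.0549 TPM in Lat-M1. The CDHR2 call was lost only in the scaled fit without Lat-M2-2 (adjusted p = 0.0629). Of 17 brush-border and endocytosis genes 4 rose and 3 fell, with the same counts after scaling; without Lat-M2-1 none fell as deposited, and after scaling 2 rose without Lat-M2-2. DPP4, another peptidase of the brush border, fell from 4.63 ± 0.22 to 2.81 ± 0.06 TPM, a call lost without Lat-M2-1 (adjusted p = 0.0621).

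Of 9 proximal tubule carriers 3 rose and 4 fell, as deposited and after scaling. SLC7A9, a carrier of cystine and basic amino acids, rose from 3.72, 4.72 and 3.97 TPM to 15.5 and 14.4 TPM (1.64 ± 0.12, adjusted p = 0.000382), and was at 0 and 0.0377 TPM in Lat-M1. SLC2A2, the basolateral glucose carrier, fell from 71.4, 68.7 and 69.7 TPM to 31.8 and 32.2 TPM (-1.10 ± 0.07, adjusted p = 0.000181), with 0.110 and 0.229 TPM in Lat-M1. The other falls were SLC4A4, SLC17A1 and SLC17A3; without PA3 or without Lat-M2-1 the falls numbered 2 as deposited and 4 scaled. Of 3 aquaporins tested, AQP1 and AQP3 rose, as deposited and after scaling. Of 11 kidney transcription factors 2 rose in both versions, POU3F3 among them, and 1 fell after scaling, LHX1, with a fall in only 1 of the scaled left-out fits, that without PA1; as deposited POU3F3 alone rose without any PA library or without Lat-M2-1, and PAX8 did not pass (71.5 ± 5.2 against 77.8 ± 1.7 TPM, adjusted p = 0.295).

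Amino acid transport had the highest share of rises as deposited among families of at least 10 members: 10 of 16 rose and none fell, and 6 rose and none fell after scaling. SLC1A1, a carrier of glutamate, rose from 21.9, 23.7 and 22.1 TPM to 35.0 and 33.1 TPM (0.57 ± 0.07, adjusted p = 0.00497) and kept its call in all 14 fits. SLC7A5, which imports large neutral amino acids, stood at 46.4, 53.7 and 53.4 TPM against 78.1 and 71.3 TPM (0.54 ± 0.09, adjusted p = 0.0121). Without any PA or Lat-M1 library 6 members rose as deposited. Without Lat-M2-1, 3 members rose and SLC7A5 missed the threshold (adjusted p = 0.082), as it did after scaling without Lat-M2-1 or Lat-M2-2 (adjusted p = 0.0708 and 0.061). Of 22 genes of the ATF4 response to amino acid shortage 9 rose and 1 fell, 6 rose and 3 fell after scaling, with 5 rises without PA1 or PA3, 3 without PA2 and 1 without Lat-M2-1. GDF15, the fall, was lost without PA2, PA3 or either Lat-M2 library. NUPR1, a stress-induced chromatin protein, rose from 2.34, 2.14 and 1.70 TPM to 9.87 and 8.81 TPM (1.76 ± 0.12, adjusted p = 0.000311) in all 14 fits. ASNS, asparagine synthetase, stood at 90.4, 83.3 and 90.4 TPM against 136 and 115 TPM, a call lost without Lat-M2-1 (adjusted p = 0.0621), also after scaling. Of 13 serine and one-carbon enzymes 5 rose and none fell as deposited, 3 and 1 after scaling; as deposited, 1 rose without PA2, PA3 or Lat-M2-1 and 2 without PA1 or either Lat-M1 library.

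In lipid metabolism, the rise of NPC1L1 was not matched across the sterol pathway. Of 24 genes of cholesterol synthesis and uptake 5 rose and none fell as deposited, and 4 rose and 3 fell after scaling. Without Lat-M2-1 only 1 rose, against 2 without PA1 or PA3, 3 without PA2 and 8 without Lat-M2-2, and no more than 1 fell in any scaled fit with a library left out. MVK, mevalonate kinase, stood at 13.2, 14.8 and 14.6 TPM against 20.8 and 18.3 TPM (0.43 ± 0.08), and SREBF2, the regulator of the pathway, at 37.4, 41.5 and 39.4 TPM against 52.5 and 48.5 TPM (0.35 ± 0.07); neither passed without Lat-M2-1 (adjusted p = 0.096 and 0.133), and they kept their calls in 10 and 5 of the 14 fits. Of the 18 members with a RefSeq promoter these were the only ones whose 250 bases held TCACCCCA, the core of the sterol element, on either strand, and they are shown for that reason with the match in capitals; the letters occurred in 1.29% of 35116 promoters.
MVK (chr12:109573544-109573793, plus strand): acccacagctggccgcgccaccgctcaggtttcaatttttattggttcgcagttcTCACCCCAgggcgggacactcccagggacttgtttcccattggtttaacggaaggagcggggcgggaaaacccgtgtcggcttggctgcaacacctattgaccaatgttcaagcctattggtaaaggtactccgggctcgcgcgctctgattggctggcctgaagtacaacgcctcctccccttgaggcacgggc
SREBF2 (chr22:41832855-41833104, plus strand): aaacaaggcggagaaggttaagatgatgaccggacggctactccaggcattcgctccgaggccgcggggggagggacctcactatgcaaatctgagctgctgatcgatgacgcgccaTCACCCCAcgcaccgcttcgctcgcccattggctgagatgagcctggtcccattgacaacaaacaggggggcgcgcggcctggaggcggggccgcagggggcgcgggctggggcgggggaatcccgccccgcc
Of 18 genes of fatty acid synthesis and desaturation 5 rose and 1 fell, and 3 rose and 2 fell after scaling; 3 rose as deposited without any library other than Lat-M2-2, and ELOVL5, the fall, was lost without PA2 or PA3. ELOVL6, an elongase of saturated fatty acids, rose from 0.423, 0.405 and 0.378 TPM to 2.85 and 2.61 TPM (1.41 ± 0.13, adjusted p = 0.00123). ACSL1 (9.55 ± 0.59 against 17.9 ± 1.2 TPM) and ACSS2 (11.6 ± 0.32 against 18.7 ± 1.3 TPM), which activate fatty acids and acetate, rose in all 14 fits. PLIN2, the coat of lipid droplets, fell from 26.6, 28.0 and 27.1 TPM to 17.0 and 16.1 TPM (-0.69 ± 0.08, adjusted p = 0.00408). Of 23 genes of fatty acid oxidation 4 rose and 1 fell, 3 rose and 6 fell after scaling; as deposited 2 rose without PA2, 1 without PA3, none without Lat-M2-1 and 7 without Lat-M2-2, and the fall was lost without PA1, PA3 or either Lat-M2 library.

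Targets of p53, the tumour suppressor that halts the cell cycle after damage, fell. Of 23 tested, 6 fell and 1 rose as deposited, and 18 fell and 1 rose after scaling; as each library was left out, 4 to 6 fell as deposited and 11 to 15 scaled, and the 1 rise was lost without Lat-M2-1. CDKN1A, the CDK inhibitor p21, stood at 188, 184 and 190 TPM in PA and 116 and 106 TPM in Lat-M2 (-0.75 ± 0.06, adjusted p = 0.00073). DDB2, a DNA damage sensor, stood at 82.6, 87.1 and 85.3 TPM against 61.4 and 57.6 TPM (-0.51 ± 0.06), and TP53INP1 at 46.6, 45.5 and 46.5 TPM against 34.0 and 30.3 TPM (-0.51 ± 0.06). SESN1, a sestrin, stood at 11.4, 10.5 and 11.1 TPM against 7.60 ± 0.95 TPM. The calls of these 4 genes held in all 14 fits. As deposited the same genes lay above PA in Lat-M1, CDKN1A at 321 and 343 TPM and DDB2 at 127 and 135 TPM. For TP53INP1 the margin was small: the log2 difference of Lat-M2 was -0.51 from PA and -0.59 from Lat-M1. After scaling its mean in Lat-M1 lies below that of PA. Several further targets were lower only after scaling: MDM2 (178 ± 9.6 against 154 ± 11 TPM) had an adjusted p of 0.0967 as deposited and 0.00614 scaled, and BAX (82.2 ± 4.3 against 69.5 ± 0.65 TPM) 0.0652 and 0.00879.

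Genes of proliferation gave few calls as deposited. Of 26 S-phase genes 2 rose as deposited, and after scaling 1 rose and 5 fell. Of 28 genes of G2 and mitosis 4 rose as deposited, and after scaling none rose and 2 fell. As deposited, 12 S-phase and 15 mitotic genes rose without Lat-M2-2, where 2890 of all 16724 genes rose, and none in either list without Lat-M2-1; without any PA or Lat-M1 library 1 S-phase gene rose, and 1 mitotic gene without PA1 and none without the others. MKI67, the proliferation marker, stood at 90.0, 89.0 and 95.8 TPM against 110 and 98.8 TPM (0.19 ± 0.07, adjusted p = 0.127). KLF4, a factor linked to growth arrest in epithelia, rose from 24.4, 24.0 and 24.2 TPM to 40.0 and 34.3 TPM (0.59 ± 0.07, adjusted p = 0.00452). MYC stood at 91.1 ± 2.8 against 114 ± 6.5 TPM (0.32 ± 0.06, adjusted p = 0.0195), a call lost without PA1, PA3 or Lat-M2-1 and kept in 5 of the 14 fits.

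Hypoxia genes did not rise as a group. The 6 tested genes of the hypoxia factors themselves gave no call except 1 rise without Lat-M2-2, with HIF1A at 1.84 ± 0.47 against 2.43 ± 0.08 TPM (adjusted p = 0.277) and EPAS1 at 0.506 ± 0.09 against 1.05 ± 0.06 TPM (adjusted p = 0.101). EPAS1 was tested only because of its level in Lat-M1. VHL was under 1 TPM in every library and was not tested. Of 28 hypoxia targets 3 rose and 4 fell as deposited, and 2 rose and 12 fell after scaling, with 1 rise without Lat-M2-1 and, in the scaled fits without PA3 or any Lat-M library, 5 to 8 falls. PLOD2, which hydroxylates collagen lysines, rose from 1.44, 1.08 and 1.16 TPM to 5.24 and 4.67 TPM (1.42 ± 0.10, adjusted p = 0.000319), far under Lat-M1 at 57.7 and 59.4 TPM. Of 13 mitochondrially encoded genes none passed in either version; without Lat-M2-2, 1 fell as deposited and 3 after scaling. Of 57 nuclear genes of the respiratory chain 4 rose as deposited, and after scaling 2 rose and 7 fell, and as deposited 2 rose without PA1 or PA2, none without PA3 or Lat-M2-1 and 7 without Lat-M2-2. Of 55 cytosolic ribosomal protein genes 6 rose as deposited, and 2 rose and 4 fell after scaling; as deposited 3 rose without PA1, 1 without PA2 or PA3, none without Lat-M2-1 and 10 without Lat-M2-2. No proteasome subunit of 31 passed as deposited, though 3 rose without Lat-M2-2. After scaling 5 of them fell (PSMA2, PSMC3, PSMD8, PSMD13 and PSMD14), and none in the scaled fits without Lat-M2-1 or either Lat-M1 library. Of 10 HOX genes none passed as deposited and HOXA9 fell after scaling, with no fall in the scaled fits without any PA library, Lat-M1-1 or Lat-M2-2. Metallothioneins, which bind metals, fell in 2 of 3 cases as deposited and 3 of 3 scaled, but as deposited in 1 without PA2, PA3, Lat-M2-2 or either Lat-M1 library and in none without Lat-M2-1, and their near-identical sequences make the division of reads uncertain. The same holds for the UGT1A genes, 6 of which fell after scaling only.

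Signalling pathways changed by single members. Of 38 TGF-beta and BMP genes 10 rose and 5 fell, 7 and 5 after scaling, with 6 rises without PA1 or PA3, 5 without PA2 and 2 without Lat-M2-1, and with 2 falls without PA2, PA3 or Lat-M2-1 and 3 without Lat-M2-2. LTBP4, which tethers latent TGF-beta, rose from 0.925, 1.48 and 1.30 TPM to 5.89 and 4.54 TPM (1.47 ± 0.18, adjusted p = 0.004), and the decoy receptor BAMBI fell from 32.3, 30.8 and 31.3 TPM to 20.9 and 18.9 TPM (-0.64 ± 0.10, adjusted p = 0.00947). Of 27 receptor tyrosine kinases and growth factors 10 rose and 3 fell, 9 and 7 after scaling, and 1 rose without Lat-M2-1. After scaling 4 to 6 rose without PA2, PA3 or either Lat-M1 library, and 1 without either Lat-M2 library. That gene was DDR1, a receptor for collagen, at 0.124, 0.0954 and 0.146 TPM in PA and 3.97 and 2.99 TPM in Lat-M2 (1.99 ± 0.14, adjusted p = 0.000341). ERBB3, a receptor for neuregulins, stood at 4.05, 4.58 and 4.44 TPM against 8.44 and 7.85 TPM and at 0.185 and 0.102 TPM in Lat-M1; its call against PA was lost without Lat-M2-1 (adjusted p = 0.0693) and, after scaling, without Lat-M2-1 or Lat-M2-2 (adjusted p = 0.0633 and 0.0593). VEGFC, a growth factor of lymphatic vessels, fell from 1.57, 1.76 and 1.94 TPM to 0.366 and 0.336 TPM (-1.03 ± 0.14, adjusted p = 0.00669), with 6.41 and 7.68 TPM in Lat-M1. Of 37 ephrin and semaphorin genes 10 rose and 4 fell, 9 and 7 after scaling, with 4 rises without Lat-M2-1 and, as deposited, 2 falls without any library other than PA1. The ligand EFNA1 (15.3 ± 0.82 against 37.4 ± 0.51 TPM) and the receptor PLXND1 (7.30 ± 0.98 against 18.1 ± 0.44 TPM) rose in all 14 fits.

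In the WNT pathway 8 of 27 genes rose and 2 fell, 5 and 4 after scaling, but as deposited 1 rose without PA1, PA2 or Lat-M2-1, 2 without PA3 and 3 without either Lat-M1 library, and DKK3 was the only fall with any library left out. The secreted DKK3, of the Dickkopf family of WNT inhibitors, fell from 8.39, 8.60 and 8.40 TPM to 3.58 and 3.28 TPM (-1.10 ± 0.08, adjusted p = 0.00032) in all 14 fits. In the Notch pathway 4 of 15 rose and 1 fell, and 4 and 2 after scaling; the fall was lost without Lat-M2-1. HES1, a direct target of Notch, rose from 7.48, 6.46 and 7.42 TPM to 14.6 and 12.4 TPM (0.84 ± 0.09, adjusted p = 0.00265) in all 14 fits; it was the only rise without Lat-M2-1. Of 9 imprinted genes 2 rose and 2 fell, and 2 rose and 3 fell after scaling. One of the rises, CDKN1C, kept its call in none of the 14 fits. PEG10, which derives from a retrotransposon, fell from 520, 491 and 523 TPM to 182 and 157 TPM (-1.59 ± 0.08, adjusted p = 6.24e-05). Its neighbour SGCE fell from 66.7 ± 0.97 to 39.3 ± 0.76 TPM. Of 14 genes tied to dormancy or latency 3 rose (NR2F2, SOX9 and TPM1) and none fell as deposited, with 1 rise without Lat-M2-1. After scaling 3 rose and 1 fell, the receptor AXL, with 1 fall in each scaled fit. SOX9 stood at 21.1, 21.0 and 22.5 TPM against 32.4 and 27.9 TPM (0.46 ± 0.09, adjusted p = 0.0183), a call lost without PA2 (adjusted p = 0.0513) or without Lat-M2-1 (adjusted p = 0.0983). NR2F1, a factor of dormant tumour cells, stood at 4.90 ± 0.17 against 4.45 ± 0.47 TPM (adjusted p = 0.516) and BHLHE41 at 2.29 ± 0.3 against 2.03 ± 0.1 TPM (adjusted p = 0.501), while Lat-M1 held BHLHE41 at 36.1 and 41.9 TPM. SOX2 was listed at 0 in both Lat-M2 libraries and was not tested. Of the tumour suppressors of renal cancer, PBRM1 (adjusted p = 0.331) and BAP1 (adjusted p = 0.732) did not pass, and SETD2 passed as deposited (0.31 ± 0.08, adjusted p = 0.0377) but in 1 of the 14 fits only.

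The cells carried renal epithelial markers. PAX8, KRT8, KRT18, CDH6 and VIM were all present. The 10 renal markers summed to 2774 to 2855 TPM in PA and to 3094 and 2752 TPM in Lat-M2. Most of each sum was VIM, so the sums say little about the other markers. Of the 8 tested, KRT8 and KRT18 rose and CDH6 fell in both versions, and VIM and LHX1 fell after scaling only. EMX2 was at 0 in all libraries. Several defining markers of other cells were at or near 0, although the marker lists were not empty. The endothelial CDH5, VWF and KDR were at 0 in PA and Lat-M2, while the endothelial list summed to 4.99 to 11.3 TPM in PA and to 12.4 and 9.20 TPM in Lat-M2, nearly all of it EGFL7. The neural and glial list summed to 9.21 to 9.24 TPM in PA and to 9.34 and 8.31 TPM in Lat-M2, nearly all of it MBP. The erythroid list stayed at or under 0.122 TPM in PA and Lat-M2. The leukocyte marker PTPRC was at 0 in both Lat-M2 libraries. The summed leukocyte list stood at 47.0 to 50.1 TPM in PA and at 44.6 and 41.9 TPM in Lat-M2, nearly all of it CD68. The fibroblast and pericyte list summed to 5.20 to 5.56 TPM in PA and to 8.91 and 6.93 TPM in Lat-M2, mainly RGS5 and COL1A1, with DCN and THY1 at 0 in Lat-M2.

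Set against Lat-M1 with the same fit, Lat-M2 was the more divergent comparison: 2668 genes were higher in Lat-M2 (16.0%) and 3354 lower (20.1%), and after scaling 3605 were higher (21.6%) and 3781 lower (22.6%). Correlations of log2 values gave the same order, as a description: Lat-M2 with PA libraries 0.9745 to 0.9779, Lat-M2 with Lat-M1 0.9427 to 0.9466, and Lat-M2-1 with Lat-M2-2 0.9842. AQP1 was highest above Lat-M1 (6.06 ± 0.08, adjusted p = 4.37e-08). SYT13, a synaptotagmin of vesicle traffic, stood at 43.2 and 38.1 TPM in Lat-M2, 23.0, 23.2 and 22.4 TPM in PA and 0.122 and 0.0722 TPM in Lat-M1 (5.24 ± 0.08). SULT1B1, a sulfotransferase, and USH1C, a scaffold of microvilli, stood in Lat-M2 at 41.3 ± 2.7 and 64.8 ± 5.3 TPM, near PA (40.2 ± 2.55 and 55.7 ± 3.8 TPM), and at 0.186 to 1.21 TPM in Lat-M1. In the other direction ACTA2, smooth muscle actin, stood at 23.9 and 22.5 TPM in Lat-M2, 13.5, 13.5 and 13.3 TPM in PA and 915 and 983 TPM in Lat-M1 (-5.29 ± 0.06, adjusted p = 4.37e-08). NDN, a growth suppressor of the MAGE family, and PHGDH, which opens serine synthesis, were under 0.25 TPM in every PA and Lat-M2 library and at 48.5 and 49.0 TPM and 31.0 and 30.7 TPM in Lat-M1. CLEC4E, a lectin receptor, stood at 11.3 and 9.32 TPM in Lat-M2, 27.1, 27.7 and 26.7 TPM in PA and 337 and 373 TPM in Lat-M1.

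**Figure D5:**
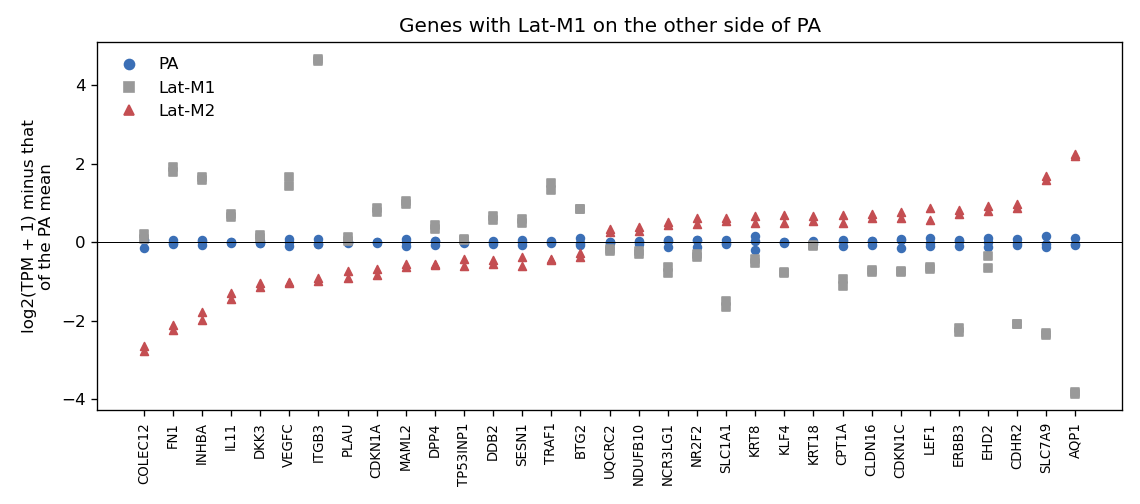
Level of each library relative to the PA mean on the log2(TPM + 1) scale, as deposited (vertical; PA circles, Lat-M1 squares, Lat-M2 triangles). The 33 named genes passed the test against PA and against Lat-M1 in both versions. Both Lat-M1 libraries are on the other side of PA in TPM as deposited. After scaling this does not hold for PLAU, COLEC12 and TP53INP1, and the other genes were not read. Of these, 17 rose in Lat-M2, AQP1 the most, and 16 fell, COLEC12 the most.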

How the data were processed

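RNA from 7 libraries of 769-P cells was sequenced. The authors deposited 1 table of TPM per library, listing 33117 genes; the unit was read from the file headers and from the sums of the columns. TopHat2 2.2.4 and the hg19 build are named per the submitters' processing notes; the quantifier, the annotation and the use of strand are not given in the sources used here, so overlapping genes may share reads. TPM keeps no read counts, so the depth of each library is unknown and no counting interval is given. Values were taken as log2(TPM + 1) for the 16724 genes whose mean reached 1 TPM and fitted with limma 3.58.1 in R 4.3.3 (trended, robust), with 3 groups and no covariate; adjusted p is Benjamini-Hochberg over all tested genes. For 161 symbols under more than 1 identifier only the entry of highest mean entered the lists.

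The text names 14 rises and 14 falls, the largest of those that passed in both versions and reached 5 TPM in the higher group. Their Lat-M2 values also had to lie all above or all below the PA values. It further names up to 4 genes for each list with at least 3 calls, and a few genes of renal cancer and dormancy. Other list members named were chosen after their values were seen. A few genes named by the rule are not reported here. The members and the gene lists were chosen with earlier results of these data known. Alternatives were median-ratio scaling, protein-coding genes rescaled, removal of 4 structural RNAs, other filters and pseudocounts, fold thresholds, the 2 groups alone, a replicate block and each library left out; scaling combined with a left-out library, and all settings for the lists, were added after seeing the data. The fit was tested on simulated data.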

Additional observations from a re-analysis of the deposited data

Results flagged for a closer look

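Of 206 named genes tested, 198 passed against PA and 140 of these also passed against Lat-M1. In 33, as deposited, Lat-M2 passed on one side of PA and both Lat-M1 libraries lay beyond all 3 PA libraries on the other. Apart from the genes named next, the side of Lat-M1 was not read after scaling. The factors of median-ratio scaling were 0.927 to 0.965 in PA and 1.033 and 1.096 in Lat-M1. Divided by these, PLAU in Lat-M1 lies below PA and COLEC12 overlaps it. The mean of TP53INP1 in Lat-M1 then also lies below that of PA. Other narrow margins above PA were not checked. The difference of Lat-M2 from Lat-M1 was tested with limma and passed for each. Both sides are judged against the same PA libraries, and Lat-M1 was not itself tested against PA. Most named genes were chosen because they passed against PA. The share of all tested genes with this pattern was not worked out, so the count of 33 cannot be read as an excess. The call against PA held for 18 of these genes in all 14 fits that left out 1 library. It held in none of the 14 for CDKN1C (highest adjusted p = 0.23), in 5 for CPT1A, in 6 for LEF1, NDUFB10, UQCRC2 and TRAF1, in 8 for KRT8 and BTG2, in 10 for NR2F2 and NCR3LG1, in 11 for EHD2 and ERBB3 and in 13 for CDHR2, DPP4 and MAML2.

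In 17 genes Lat-M2 was above PA and Lat-M1 below, as deposited. The log2 differences of Lat-M2 from Lat-M1 were AQP1 6.06, SLC7A9 3.97, CDHR2 3.01, ERBB3 3.00, SLC1A1 2.15, CPT1A 1.62, CDKN1C 1.44, CLDN16 1.39, LEF1 1.38, EHD2 1.36, KLF4 1.35, NCR3LG1 1.19, KRT8 1.06, NR2F2 0.87, KRT18 0.68, NDUFB10 0.60 and UQCRC2 0.50. AQP1, SLC7A9, CDHR2 and SLC1A1 belong to the proximal tubule, KRT8, KRT18 and CLDN16 to epithelia, and ERBB3 is a receptor for neuregulins.

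In 16 genes Lat-M2 was below PA and Lat-M1 above, as deposited. The log2 differences were ITGB3 -5.59, FN1 -4.02, INHBA -3.49, COLEC12 -2.86, VEGFC -2.57, IL11 -2.05, TRAF1 -1.86, MAML2 -1.61, CDKN1A -1.57, DKK3 -1.24, BTG2 -1.18, DDB2 -1.13, SESN1 -1.04, DPP4 -0.95, PLAU -0.90 and TP53INP1 -0.59. CDKN1A, DDB2, BTG2, SESN1 and TP53INP1 are p53 targets, FN1 and ITGB3 belong to matrix attachment, and PLAU to plasminogen activation.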

How the results depend on the processing

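Against PA, 2494 genes passed, 2119 higher and 375 lower. The count was 1529 without the filter on low values (1250 higher), 1518 with only the 2 groups (1236 higher), 249 at a 2-fold change or more (174 and 75) and 125 in a test against a 1.5-fold change (92 and 33). Scaling gave 1249 and 1407. The lower count was 1296 with protein-coding genes rescaled and 881 without 4 structural RNAs. Leaving out a library gave 506 (without Lat-M2-1) to 3191 (without Lat-M2-2), with 302 to 2890 higher and 204 to 301 lower; after scaling the ranges were 894 to 2010, 333 to 968 and 561 to 1042. With the replicate number as a block 943 passed, 755 higher and 188 lower. Deviations of libraries with the same number correlated at -0.082 to 0.0312. With 2 libraries in each Lat-M group the deviations are mirror images, so these values cannot decide whether the numbers pair the samples. Against Lat-M1, 6022 passed, 1123 at 2-fold or more (575 higher, 548 lower) and 963 in the 1.5-fold test (457 and 506); the higher count was 4351 with protein-coding genes rescaled and 4356 without structural RNAs. Left-out libraries gave 3838 to 7706, with 1536 to 3714 higher and 1917 to 3992 lower, scaled fits included, and the block gave 4795. The causes of these shifts were not tested.

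3 uncalled genes changed sign. PBRM1 was -0.015 after scaling, -0.0119 without Lat-M2-1 and -0.102 to 0.276 over the 14 fits with a library left out. BAP1 was -0.115 after scaling, -0.071 with protein-coding genes rescaled, -0.069 without structural RNAs and -0.189 to 0.0541 over the 14 fits. PAX8 was -0.027 after scaling and -0.0762 to 0.165 over the 14 fits. Of the 27 genes named for size, 24 kept their call in every alternative in which they were tested (23 to 25 each); of 183 named from lists, 41 did.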
